A study of Mus musculus with 8 samples.

Results

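In fibroblasts reprogrammed for 5 days, 1855 genomic regions carried a peak of the FLAG-tagged NanogBiD fusion and no peak of FLAG-tagged NanogWT. BRG1, the ATPase of the BAF chromatin remodeling complex, had a peak at these regions in the NanogWT cells. The regions were built by merging overlapping or touching peaks of 4 lists, those of FLAG and BRG1 in both arms, which gave 93352 regions. The 1855 regions were 1.99% of these, 6.28% of the 29547 regions with FLAG in NanogBiD only, and 6.09% of the 30450 regions with BRG1 in NanogWT. BRG1 was also called in NanogBiD at 1274 of them and in NanogWT only at 581. Because they were chosen by the FLAG peaks of both arms and the BRG1 peaks of NanogWT, those values are a description and support nothing here. The histone marks, the position and the sequence were not used by the rule. The presence of BRG1 in NanogBiD did not choose a region, but its peaks took part in the merging and so helped set the extent of a region and which peaks it joined. The median length was 1055 bp with BRG1 in both arms and 853 bp with BRG1 in NanogWT only.

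The cells were mouse embryonic fibroblasts, described in the methods as mid-gestation fibroblasts carrying an Oct4-GFP reporter (OG2 males crossed to 129 females). Both arms received retroviral Oct4, and each received 1 form of FLAG-tagged Nanog: NanogWT is the unmodified factor (labelled Nanog+Oct4), and NanogBiD carries an N-terminal domain of SS18, a BAF subunit, fused to the N-terminus of Nanog (labelled NanogN70+Oct4). The labels do not spell out N70, and it is taken here as NanogBiD because the SS18 domain of the fusion is described with that number of residues. The cells were kept in the iCD3 reprogramming medium, and both factors stayed under retroviral control, so FLAG reports the introduced protein and not the endogenous gene. CUT&Tag was performed for FLAG, BRG1, H3K27ac and H3K4me1 in each arm, which gives 8 groups of 1 library each. Replicates had been merged before peak calling, so there was no replicate spread, no test between the arms was possible, and no p-value is given. A difference between the arms may therefore be a difference between libraries, and peak presence depends on depth, which the files do not give. Both arms were sampled on the same day, so a rise or fall is a difference between arms and not a change in time.

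NANOG is a homeodomain transcription factor of the pluripotency network, and OCT4 is its POU-domain partner in that network. BRG1, encoded by Smarca4, hydrolyses ATP to slide or evict nucleosomes, and as part of BAF it occupies active promoters and enhancers in most cell types. H3K27ac is found at active promoters and enhancers, and H3K4me1 at active and primed enhancers. In fibroblasts, enhancers bound by AP-1, a dimer of FOS and JUN family proteins, commonly carry BAF.

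Peak lists held 58940 FLAG peaks in NanogWT and 74782 in NanogBiD, 30859 and 53748 BRG1 peaks, 35452 and 42598 H3K27ac peaks, and 72242 and 57156 H3K4me1 peaks. The caller's score, which rises as its p-value falls, was at least 50 in each list. H3K27ac was present at the promoters of 9 of 10 fibroblast markers in both arms, Prrx1 being the exception, and at 0 of 8 pluripotency markers in NanogWT and 1 of 8 in NanogBiD, Tdgf1. Of markers of other cell types, epithelial genes had H3K27ac at 0 of 4 promoters in NanogWT and 1 of 4 in NanogBiD, endothelial genes at 0 and 2, blood genes at 1 and 2, and neural genes at 0 and 2. Fibroblast markers were thus marked in both arms, and the part of the other cell types in the results was not tested.

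The sequence under the NanogBiD FLAG summit is shown for 8 of the regions, since the sequence was not used to choose them and the results on motifs turn on it. Each run is 101 bp of mm10 on the plus strand, centred on the summit, and capitals mark a match to 1 of the 12 motifs searched. The first pair are the highest-scoring regions away from promoters with BRG1 in both arms. The run on chromosome 10 is intergenic and holds an AP-1 match close to its right edge, and the run in an intron of Fhad1 holds no match.
chr10:111389986-111390086: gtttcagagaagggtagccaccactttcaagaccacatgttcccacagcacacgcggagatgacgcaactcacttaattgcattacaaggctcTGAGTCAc
chr4:141928974-141929074: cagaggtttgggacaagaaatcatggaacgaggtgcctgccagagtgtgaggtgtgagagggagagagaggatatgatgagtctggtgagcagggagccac

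The next pair had BRG1 in NanogWT only and also lie away from promoters, both between genes. The first, on chromosome 14, holds a TEAD match and the other holds none.
chr14:121436023-121436123: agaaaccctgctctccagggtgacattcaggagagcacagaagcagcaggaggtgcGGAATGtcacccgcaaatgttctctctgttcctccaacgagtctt
chr6:85410992-85411092: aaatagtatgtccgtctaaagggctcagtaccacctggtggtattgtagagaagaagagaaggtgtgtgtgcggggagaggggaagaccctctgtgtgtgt

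A further pair had H3K27ac in NanogBiD only. The first lies in an intron of A830012C17Rik, 10096 bp from the start of Penk, and holds the NANOG core, and the second is intergenic and holds an AP-1 and an NFY match.
chr4:4148865-4148965: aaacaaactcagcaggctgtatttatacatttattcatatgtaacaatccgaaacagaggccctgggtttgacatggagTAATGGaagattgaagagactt
chr4:5313954-5314054: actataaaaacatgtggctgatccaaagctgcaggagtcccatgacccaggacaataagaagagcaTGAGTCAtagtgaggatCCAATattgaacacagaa

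The last pair had H3K27ac in NanogWT only. They lie in introns of Lrch1, with a RUNX match, and of Cdkal1, with none.
chr14:74840989-74841089: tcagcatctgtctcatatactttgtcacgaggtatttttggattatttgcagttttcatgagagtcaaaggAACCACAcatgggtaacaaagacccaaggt
chr13:29669222-29669322: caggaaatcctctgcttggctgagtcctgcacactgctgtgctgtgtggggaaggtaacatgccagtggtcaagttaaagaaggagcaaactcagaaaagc

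The values that chose the regions were low. Summit height, the number of tags piled up at a summit and not scaled to depth, had a median of 13 tags for NanogBiD FLAG (quartiles 10 and 16, highest 48) and 11 tags for NanogWT BRG1 (quartiles 9 and 13, highest 27). At the 23511 regions with NanogWT BRG1 and FLAG in both arms the medians were 21 and 14 tags. FLAG reached 20 tags at 207 of the 1855 regions, 11.2%, and NanogWT BRG1 at 46, 2.48%. The regions were also shorter, with a median of 997 bp against 1582 bp. Just inside the threshold, the lowest FLAG scores were 50.02, 50.03 and 50.25 and the lowest NanogWT BRG1 scores 50.02, 50.04 and 50.05. Just outside it, regions with BRG1 in NanogWT and FLAG in both arms had NanogWT FLAG scores that began at 50, followed by 50.02 and 50.09. FLAG scores under 60 were found at 18.3% of the regions (340) and of 100 or more at 35.0% (650). NanogWT BRG1 scores under 60 were found at 30.4% (564) and of 100 or more at 15.1% (281).

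**Figure D1:**
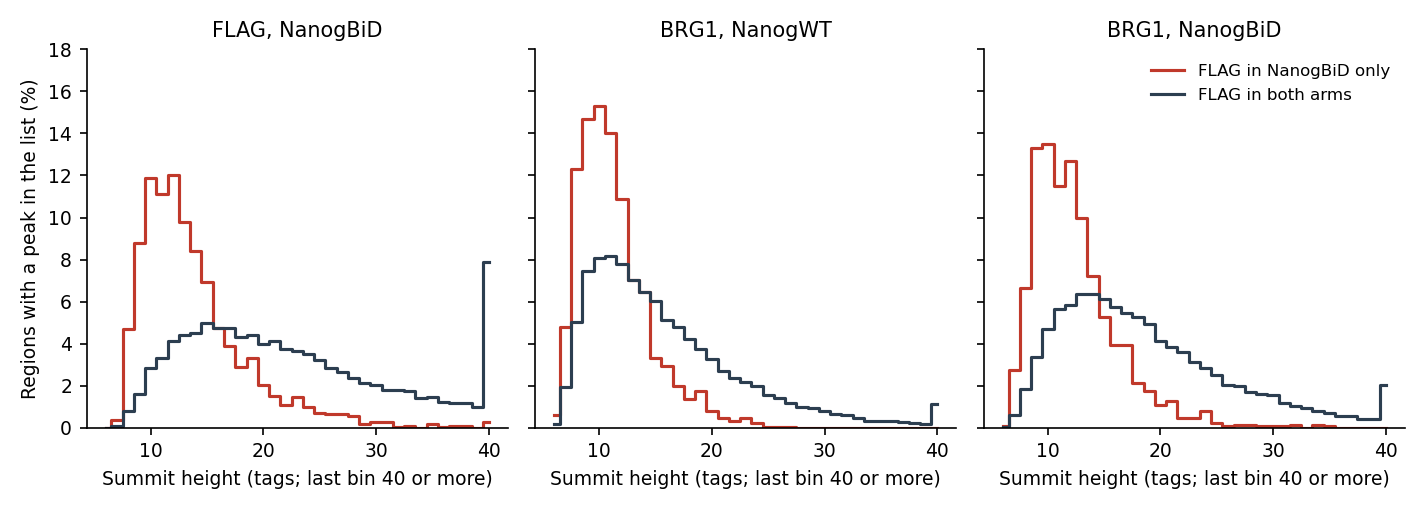
Summit heights in tags (x axis, counts of 40 or more in the last bin) of FLAG in NanogBiD, BRG1 in NanogWT and BRG1 in NanogBiD, as the percentage of regions with a peak in that list (y axis), for regions with FLAG in NanogBiD only and BRG1 in NanogWT (red) and for regions with FLAG in both arms and BRG1 in NanogWT (dark). The red distributions lie lower in all 3 panels, with medians of 13, 11 and 12 tags against 21, 14 and 17 tags.

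The positions of the FLAG and NanogWT BRG1 peaks are a description, since the rule used both. At 1849 of the 1855 regions, 99.7%, the NanogBiD FLAG peak itself overlapped a NanogWT BRG1 peak. This largely follows from the merging. Without a NanogWT FLAG peak, only a NanogBiD BRG1 peak could bridge FLAG and NanogWT BRG1 peaks that did not meet. The median distance from the FLAG summit to the NanogWT BRG1 summit was 104 bp, and 48.6% of the distances were within 100 bp, close to the 48.4% of regions with FLAG in both arms. Where BRG1 was also called in NanogBiD, its summit lay a median of 86 bp from FLAG and 94 bp from the NanogWT BRG1 summit. The nearest NanogWT FLAG peak was a median of 8781 bp away, and it was within 1 kb at 145 regions, 7.82%.

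The first question was whether BRG1 was also found at these regions in the cells with the fusion. It was at 1274 of the 1855, 68.7% (Wilson 95% interval 66.5 to 70.7), against 81.3% over the 30450 regions with NanogWT BRG1. All intervals here cover counting error only, since regions of 1 library are not replicates. BRG1 was called in NanogBiD at 93.9% (93.6 to 94.2) of the regions with FLAG in both arms. The share was 34.5% (32.6 to 36.5) of the 2211 with FLAG in NanogWT only and 22.2% (20.7 to 23.8) of the 2873 with no FLAG peak. The fusion-only regions thus lay between those with FLAG in both arms and those without FLAG in NanogBiD. This order held in 7 of 7 alternatives that changed the peak threshold, the overlap or the chromosomes and were run for all 4 classes.

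BRG1 in NanogBiD was called more often where BRG1 in NanogWT was taller. Among the fusion-only FLAG regions it was called at 63.0% of the 602 with a NanogWT BRG1 summit of 9 tags or less, at 66.5% of the 543 with 10 or 11 tags, at 71.5% of the 453 with 12 to 14 tags and at 81.7% (76.5 to 86.0) of the 257 with 15 tags or more. At the same heights it was called at 84.5%, 89.6%, 93.6% and 98.5% of the regions with FLAG in both arms. It was called at 26.1%, 29.6%, 38.9% and 60.3% of those with FLAG in NanogWT only, and at 14.3%, 23.7%, 32.4% and 37.9% of those without FLAG. The order of the 4 classes was therefore the same in each band of BRG1 height. Depth and the caller's threshold bear on each of these shares, and their part was not tested.

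**Figure D2:**
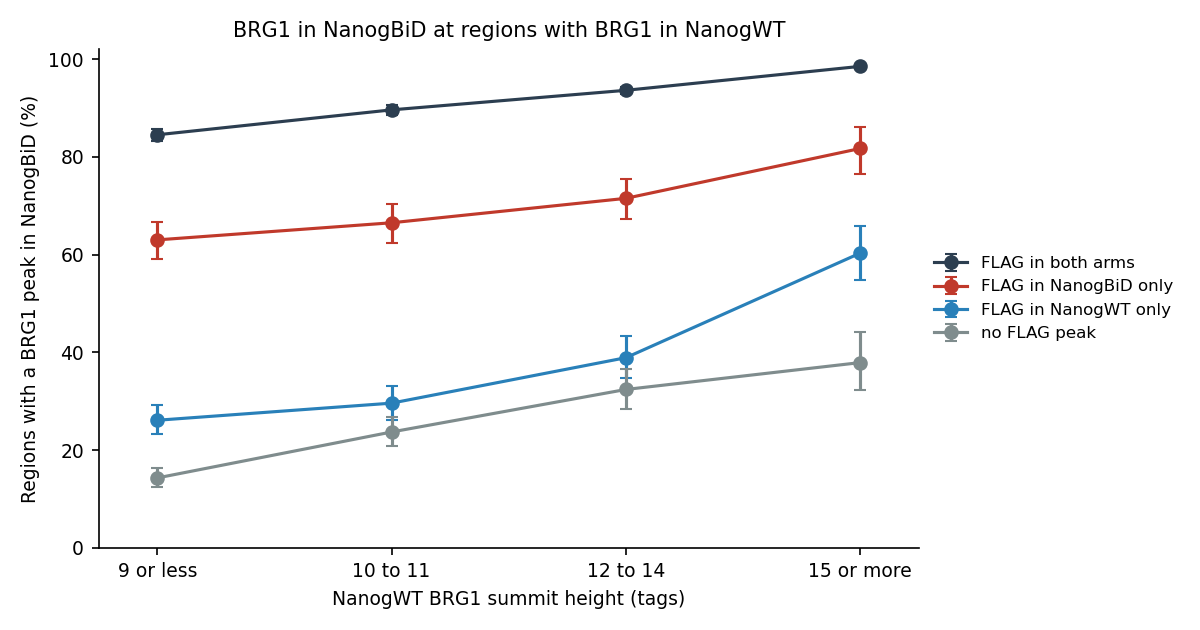
Percentage of regions with a BRG1 peak in NanogWT that also had one in NanogBiD (y axis), by NanogWT BRG1 summit height in tags (x axis), for 4 classes of FLAG occupancy, with Wilson 95% intervals as bars. Regions with FLAG in NanogBiD only (red) rose from 63.0% to 81.7% and lay in each band below regions with FLAG in both arms and above the 2 classes without FLAG in NanogBiD.

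BRG1 in NanogBiD was also called more often where FLAG, which the rule used, was taller. Among regions with a NanogBiD FLAG summit of 10 tags or less, 237 of 478 had BRG1 in NanogBiD, 49.6% (45.1 to 54.0). The share was 67.0% at 11 or 12 tags, 72.4% at 13 to 15 tags and 85.5% at 16 tags or more (413 of 483). Both are peaks of the same cells, so the shares are a description.

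Where both arms had a BRG1 peak its heights, not scaled to depth, are read only against other regions of the same 2 libraries. Over the 1274 regions the median change in summit height from NanogWT to NanogBiD was 0.09 on the log2 scale (exact binomial interval 0.00 to 0.12), against 0.14 over all 24759 regions with BRG1 in both arms. The median of the fusion-only FLAG regions was 0.00 with scores of at least 100 and with heights of at least 15 tags in every list. It was 0.26 with the 20000 highest-scoring peaks, and 0.17 both with a NanogBiD FLAG score of at least 100 and with scores in place of heights. The summit was taller in NanogBiD at 650 regions, taller in NanogWT at 477 and equal at 147. At least 2-fold more tags were found in NanogBiD at 42 regions and in NanogWT at 3, where 7.39% and 0.464% of the 24759 regions passed the same fold. The lowest BRG1 summit called in NanogBiD was 6 tags, and the NanogWT median of these regions was 11 tags. Many 2-fold falls would thus leave no peak to measure, so rises and falls are not compared. The median was 0.15 at regions with FLAG in both arms, -0.14 at those with FLAG in NanogWT only and -0.13 at those without FLAG.

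The changes differed with position. Away from promoters, taken as regions more than 2 kb from any annotated start site, the median of the fusion-only FLAG regions was 0.14 (0.11 to 0.15, 768 regions), and 35 of the 42 regions with a 2-fold rise were found there. At promoters it was 0.00 (506 regions), with 7 rises of that size and 2 falls, which are not compared for the same reason. Regions with FLAG in both arms showed 0.35 away from promoters and 0.00 at promoters, so the same split was present there with a larger distal value.

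The largest rise of BRG1 was measured at an intergenic region whose nearest protein-coding start is that of Zfp608, a zinc finger gene. BRG1 there was 8 tags in NanogWT and 32 tags in NanogBiD, a log2 change of 2.0. FLAG in NanogBiD was 48 tags, the tallest of all 1855 regions, and H3K27ac and H3K4me1 peaks of 12 and 16 tags were called in NanogBiD only. The next, in an intron of the noncoding gene 4930459C07Rik (chr10:96236885-96239712), went from 9 to 30 tags (log2 1.74) beside a FLAG summit of 41 tags, and H3K27ac of 18 tags was again called in NanogBiD only. Its H3K4me1 peak, of 11 tags, was called in NanogWT only. The one after it, nearest to 4930447J18Rik (chr14:47877339-47878459), went from 7 to 23 tags (log2 1.72) beside FLAG of 26 tags, with H3K27ac and H3K4me1 of 13 tags each in NanogBiD only. All 3 regions lie away from promoters and had no H3K27ac peak in NanogWT.

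Falls could be measured only where NanogBiD also had a BRG1 peak, which leaves out the 581 regions without one. The sizes of falls and rises are therefore not compared. The largest fall measured was in an intron of Zfhx3, which encodes a large homeodomain and zinc finger factor, where BRG1 was 16 tags in NanogWT and 7 tags in NanogBiD, a log2 change of -1.19, with FLAG of 15 tags and neither mark in either arm (chr8:108743015-108743893). At the promoter of Enho, which encodes the secreted peptide adropin, it was 20 and 10 tags (log2 -1.0), and H3K27ac was 11 and 14 tags. At the promoter of Vopp1 BRG1 was 14 and 7 tags (log2 -1.0), and H3K27ac was 30 tags in both arms. A fall of BRG1 thus stood beside H3K27ac that was called in both arms at these promoters.

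Named by the strength of both peaks, the leading promoters with BRG1 in both arms were those of Specc1, Eif2b3 and Atp5mpl. At Specc1 (chr11:62005066-62006186) FLAG in NanogBiD was 25 tags, and BRG1 was 16 tags in NanogWT and 19 in NanogBiD. At Eif2b3, a subunit of the exchange factor of translation initiation, FLAG was 15 tags and BRG1 15 and 11 tags. At Atp5mpl, a small component of the mitochondrial ATP synthase, FLAG was 14 tags and BRG1 13 and 10 tags. All 3 had H3K27ac in both arms, at 22 and 26, 13 and 21, and 25 and 28 tags in NanogWT and NanogBiD.

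Away from promoters, the leading regions with BRG1 in both arms were the 2 whose sequences open the text and an intron of Bdh2, 9009 bp from the start of Slc9b2. At the chromosome 10 region, 83187 bp from Nap1l1, a histone chaperone gene, FLAG was 18 tags, BRG1 17 and 21 tags, and H3K27ac 22 and 15 tags. In the Fhad1 intron FLAG was 22 tags, BRG1 22 and 17 tags, and H3K27ac 19 tags in both arms. In the Bdh2 intron FLAG was 20 tags, BRG1 14 and 18 tags, and H3K27ac 11 and 19 tags. H3K4me1 was called in both arms at all 3, so both marks were present in NanogWT as well.

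At the 6 leading regions with BRG1 in NanogWT only FLAG was 9 to 17 tags, against 14 to 25 tags at the 6 with BRG1 in both arms. At the shared promoter of Cdca5, which encodes the cohesin regulator sororin, and Zfpl1 (chr19:6084459-6086126), FLAG was 17 tags, BRG1 16 tags in NanogWT and not called in NanogBiD, and H3K27ac 22 and 23 tags. At the promoter of Gm18227 FLAG was 15 tags, BRG1 9 tags and H3K27ac 14 tags in both arms, and at that of Gm12044 FLAG was 14 tags and BRG1 12 tags with H3K27ac in neither arm. Away from promoters, the chromosome 14 region shown above, 56062 bp from the kinase gene Stk24, had FLAG of 15 tags, BRG1 of 14 tags and H3K27ac of 16 and 15 tags. The chromosome 6 region, 12844 bp from the notochord homeobox gene Noto, had FLAG of 16 tags, BRG1 of 14 tags and no H3K27ac. An intron of Gsap had FLAG of 9 tags, BRG1 of 11 tags and H3K27ac of 10 tags in NanogWT only. H3K27ac was thus found in NanogBiD at 3 of the 4 regions among these that had it in NanogWT.

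H3K27ac differed between the arms more often toward the fusion. It was present at 974 of the 1855 regions in NanogWT, 52.5%, and at 1221 in NanogBiD, 65.8%, where the shares over all 93352 regions were 34.4% and 42.2%. It was called in NanogBiD only at 369 regions, 19.9% (18.1 to 21.8), and in NanogWT only at 122, 6.58% (5.54 to 7.80), against 13.1% and 5.25% of all regions. Both arms had it at 45.9% and neither at 27.6%, against 29.1% and 52.5% of all regions. The share in NanogBiD only exceeded that in NanogWT only in 7 of 7 of the same alternatives, although with heights of at least 15 tags in every list both fell, to 10.8% and 3.19%. Where both arms had a peak, the median log2 change in its height was 0.12 (0.08 to 0.14, 852 regions), against 0.08 over all regions with H3K27ac in both arms. Heights are not scaled to depth, and the interval reaches the value over all regions, so no rise is read.

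The marks were set beside the other classes of the same 2 BRG1 and FLAG lists. At the 10376 regions where NanogBiD alone had both FLAG and BRG1, 22.8% had H3K27ac in NanogBiD only and 1.03% in NanogWT only. At the 17316 with FLAG in NanogBiD only and no BRG1 the shares were 6.50% and 1.29%, and at the regions with FLAG in both arms and BRG1 in NanogWT they were 8.26% and 4.27%. That class had longer regions, and with windows of 100 bp around summits its shares were 16.5% and 8.03%, against 22.8% and 11.8% for the fusion-only FLAG regions with NanogWT BRG1. The reverse class, with FLAG in NanogWT only and BRG1 in NanogWT, had 5.65% and 26.4%, and regions with BRG1 in NanogWT and no FLAG had 9.01% and 11.7%. The classes differed in their NanogWT levels. H3K27ac was present in NanogWT at 974 of the 1855 fusion-only FLAG regions with NanogWT BRG1 and at 697 of the 10376. Of the 881 without the mark in NanogWT, 369 had it in NanogBiD, 41.9% (38.7 to 45.2), against 24.5% (23.6 to 25.3) of the 9679 such regions in the class of 10376, 59.0% (57.3 to 60.7) of those with FLAG in both arms and BRG1 in NanogWT, and 19.9% of those among all regions. Of the 974 with the mark in NanogWT, 122 had no peak in NanogBiD, 12.5% (10.6 to 14.8), against 15.4% (12.9 to 18.2), 4.97% (4.68 to 5.28) and 15.3% in the same order. Of the groups compared here, regions with FLAG in both arms and BRG1 in NanogWT had the highest share with the mark in NanogBiD where NanogWT lacked it. They also had the lowest share without it where NanogWT had it. These shares were not taken with windows of equal length, and the part of region length was not tested.

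**Figure D3:**
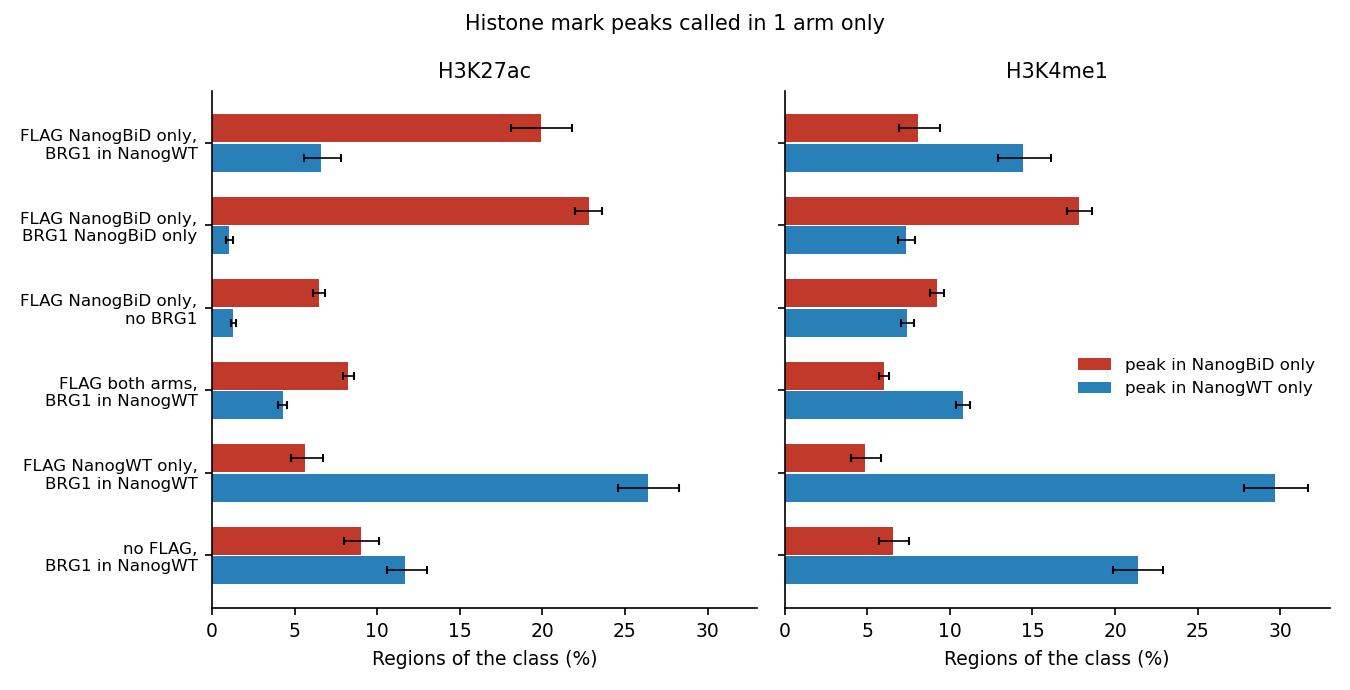
Percentage of the regions of each class (x axis) with an H3K27ac peak (left) or an H3K4me1 peak (right) in NanogBiD only (red) or NanogWT only (blue), for 6 classes of FLAG and BRG1 occupancy, with Wilson 95% intervals as bars. In the top class H3K27ac was found in NanogBiD only at 19.9% and NanogWT only at 6.58%, and H3K4me1 at 8.09% and 14.4%.

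H3K27ac in NanogBiD only was found with and without BRG1 in that arm. The share was 21.3% (19.1 to 23.6) where BRG1 was called in both arms and 16.9% (14 to 20.1) where it was called in NanogWT only. Away from promoters the shares were 26.2% (23.2 to 29.4) of 768 and 18.2% (14.6 to 22.4) of 369, and at promoters 13.8% (11.1 to 17.1) and 14.6% (10.5 to 20). Of the regions without the mark in NanogWT, 47.5% (43.5 to 51.6) and 31.5% (26.6 to 36.9) had it in NanogBiD. The 2 sets also differ in region length, with medians of 1055 and 853 bp. The part of length was not tested, and the intervals are no test between the sets. H3K27ac in NanogWT only was found at 5.02% (3.95 to 6.36) and 9.98% (7.80 to 12.7). Away from promoters 23.6% had it in NanogBiD only and 8.18% in NanogWT only, and at promoters 14.1% and 4.04%. The mark was present in NanogWT at 40% of the regions away from promoters and 72.3% of those at promoters. Of the regions without it in NanogWT, 39.3% (35.7 to 43.0) away from promoters and 50.8% (43.9 to 57.6) at promoters had it in NanogBiD, so the order turned. By NanogWT BRG1 height the share in NanogBiD only was 25.2% at 9 tags or less, 19.3%, 15.9% and 15.6% at 15 tags or more. At regions with FLAG in both arms it was 22.2%, 14.4%, 7.86% and 2.08% in the same bands. There H3K27ac was present in NanogWT at 60.2% of the lowest and 96.4% of the highest band, against 40.4% and 66.1% of the fusion-only FLAG regions. Regions with the mark in NanogWT cannot count as NanogBiD only, so no trend with BRG1 height is read from these shares.

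The shares by FLAG height are given as a description, since the rule used FLAG and the H3K27ac peaks come from the same cells. H3K27ac in NanogBiD only was found at 15.3% of the regions with FLAG of 10 tags or less, 16.9%, 22.9% and 24.2% (20.6 to 28.2) of those with 16 tags or more. H3K27ac in NanogWT only was found at 9.0%, 9.37%, 5.35% and 2.90% (1.73 to 4.81). Promoters made up 39.7%, 44.5%, 40.3% and 31.1% of these bands.

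**Figure D4:**
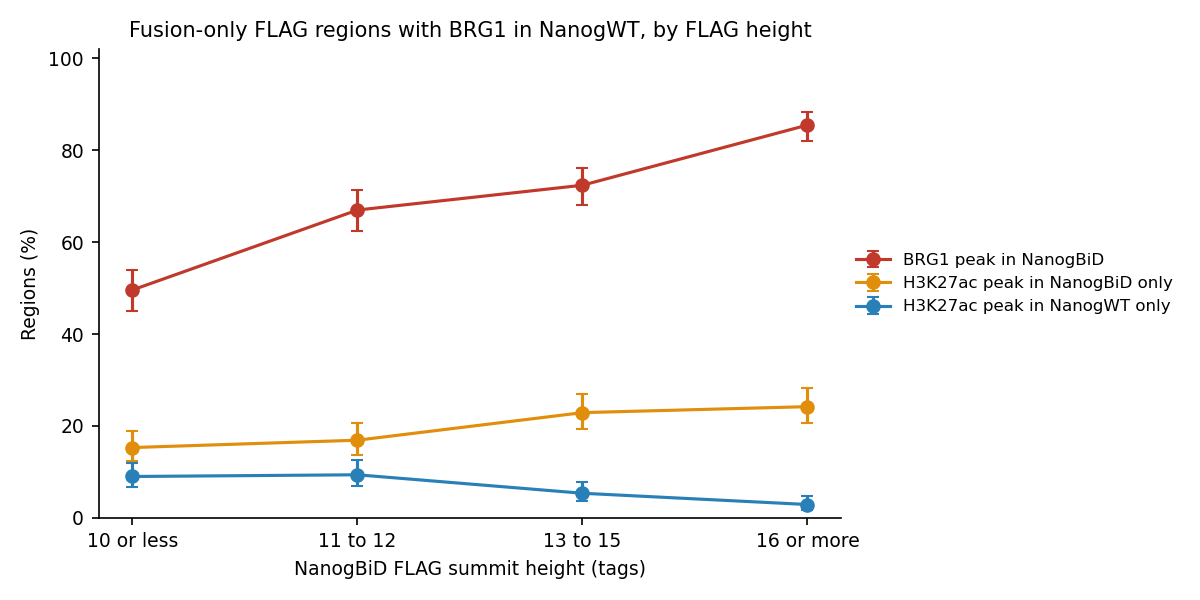
Percentage of the fusion-only FLAG regions with NanogWT BRG1 (y axis) that had a BRG1 peak in NanogBiD (red), H3K27ac in NanogBiD only (orange) or H3K27ac in NanogWT only (blue), by NanogBiD FLAG summit height in tags (x axis), which the rule used, with Wilson 95% intervals as bars. From the lowest to the highest band BRG1 went from 49.6% to 85.5%, H3K27ac in NanogBiD only from 15.3% to 24.2% and H3K27ac in NanogWT only from 9.0% to 2.90%.

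Of the regions with H3K27ac in NanogBiD only, the highest score of that peak was found near Penk, which encodes the opioid peptide precursor proenkephalin (chr4:4148388-4149526). FLAG was 24 tags, BRG1 9 tags in NanogWT and 17 in NanogBiD, and H3K27ac 18 tags in NanogBiD with no peak in NanogWT, while H3K4me1 was 17 and 14 tags. At the promoter of Fahd2a FLAG was 13 tags, BRG1 12 and 13 tags, and H3K27ac 29 tags and H3K4me1 15 tags in NanogBiD only. At the intergenic region nearest to Gm11782 FLAG was 14 tags, BRG1 10 and 11 tags, and H3K27ac 15 tags in NanogBiD only, with H3K4me1 of 20 and 14 tags. H3K4me1 was thus also present in NanogWT at 2 of the 3.

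Of those with H3K27ac in NanogWT only, the leading regions lay in introns of Lrch1, of the zinc finger gene Zfp532 and of Cdkal1, which encodes an enzyme that modifies transfer RNA. In Lrch1 (chr14:74840334-74841358) FLAG was 10 tags, BRG1 9 and 12 tags, H3K27ac 14 tags and H3K4me1 20 tags in NanogWT only. In Zfp532 FLAG was 8 tags, BRG1 11 tags in NanogWT only, and H3K27ac 19 tags and H3K4me1 17 tags in NanogWT only. In Cdkal1 FLAG was 10 tags, BRG1 7 and 11 tags, and H3K27ac 10 tags and H3K4me1 11 tags in NanogWT only. Both marks were called in NanogWT only at all 3, and their FLAG summits of 8 to 10 tags were below those of 13 to 24 tags at the regions above.

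H3K4me1 was present at 73.9% of the 1855 regions in NanogWT and 67.6% in NanogBiD, where the shares over all regions were 50.1% and 45.7%. It was found in NanogBiD only at 150 regions, 8.09% (6.93 to 9.42), and in NanogWT only at 267, 14.4% (12.9 to 16.1). These arm-only shares were close to those over all regions, 9.52% and 13.9%. The direction turned when each list was limited to its 20000 highest-scoring peaks, where the shares were 17.4% and 6.80%, so no direction is read from it. The median change in H3K4me1 height was -0.19 on the log2 scale, against -0.18 over all regions with peaks in both arms. H3K27ac and H3K4me1 stood together at 43.6% of the regions in NanogWT and 49.8% in NanogBiD, against 28.2% and 30.9% of all regions. Neither mark was found in either arm at 169 regions, 9.11%, against 32.7% of all regions.

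The regions lay at promoters more often than other fusion-only FLAG regions. Of the 1855, 718 were within 2 kb of an annotated start site, 38.7% (36.5 to 40.9), against 13.8% where FLAG and BRG1 were both found in NanogBiD only, 12.5% where FLAG was in NanogBiD only without BRG1, and 24.4% of all regions. Among regions with NanogWT BRG1 the share was 48.6% with FLAG in both arms, 32.5% with FLAG in NanogWT only and 34.6% without FLAG. Such stretches cover 10.9% of the chromosomes, and the share of the fusion-only FLAG regions with NanogWT BRG1 rose to 64.6% with heights of at least 15 tags. The FLAG summit lay in an exon at 16% of the regions, in an intron at 47.1% and between genes at 36.9%. BRG1 in NanogBiD was called at 70.5% (67.0 to 73.7) of the 718 at promoters and 67.5% (64.8 to 70.2) of the 1137 away from them, and these intervals overlap.

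The sequence under the FLAG summit differed from that of the other fusion-only FLAG regions. The median GC content of the 101 bp was 52.5%, against 41.6% where FLAG and BRG1 were in NanogBiD only and 40.6% at those without BRG1, and 50.5% at regions with FLAG in both arms and BRG1 in NanogWT. It was 49.5% away from promoters. Windows were read for the 1849 regions on chromosomes 1 to 19 and X. Motifs were searched on both strands as fixed letters and compared with a window 1 kb away. The letters were TGACTCA for AP-1, ATGCAAAT for OCT, TAATGG for the NANOG core, GGAATG for TEAD, TGTGGTT for RUNX, CCAAT for NFY, GGGCGG for the GC box, GGGTGTGG for KLF, CCGGAAG for ETS and TGACGTCA for CRE. SOX was searched as ACAAAGG or ACAATGG, and the CTCF core by its degenerate consensus. No word contains another on either strand.

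AP-1 had the highest share at the summit of the 12 motifs. It was found at 220 of 1849 summits, 11.9% (10.5 to 13.5), and at 1.95% of the windows 1 kb away. Over all NanogBiD FLAG regions the share at the summit was 7.73%. The NANOG core was found at 3.19% of the summits and 3.3% of the windows 1 kb away, against 7.35% of all NanogBiD FLAG summits, and the OCT octamer at 0.919% and 0.541%, against 2.51%. SOX (3.3% and 2.87%), TEAD (5.84% and 4.98%), RUNX (2.65% and 2.43%) and KLF (1.51% and 1.24%) were found in near equal shares at and away from the summit. The GC box was found at 9.19% and 2.49%, most of it at promoters, where it reached 18.1%. ETS was found at 1.41% and 0.703%, CRE at 0.324% and 0.108%, NFY at 9.14% and 12.2%, and the CTCF core at 22 summits, 1.19%, against 2 windows away, 0.108%, a larger ratio than that of AP-1 on few windows. Over all NanogBiD FLAG summits the CTCF core was found at 0.236%. A match is a description of letters and not a bound site.

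Promoters and GC content differ between the classes, so the shares were also taken away from promoters and then within a band of GC. Away from promoters AP-1 was found at 177 of 1132 fusion-only FLAG summits with NanogWT BRG1, 15.6% (13.6 to 17.9), at 8.95% where FLAG and BRG1 were in NanogBiD only, 6.88% where BRG1 was absent, and 12.1% where FLAG was in both arms. The NANOG core was found at 3.53% (2.61 to 4.78), 10.2%, 9.56% and 5.77% of the same classes, and the OCT octamer at 1.24%, 3.62%, 2.73% and 2.46%. The CTCF core was found at 13 summits, 1.15% (0.672 to 1.95), against 0.212%, 0.125% and 0.389%. At a GC content of 40% to under 50% the fusion-only FLAG regions with NanogWT BRG1 (430 of them) still had AP-1 at 18.4% (15 to 22.3) and the NANOG core at 3.02% (1.78 to 5.10). The other classes had AP-1 at 10.6%, 8.60% and 14.1% and the NANOG core at 9.68%, 9.12% and 6.31%. Within that band the order of the classes was unchanged for both motifs.

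**Figure D5:**
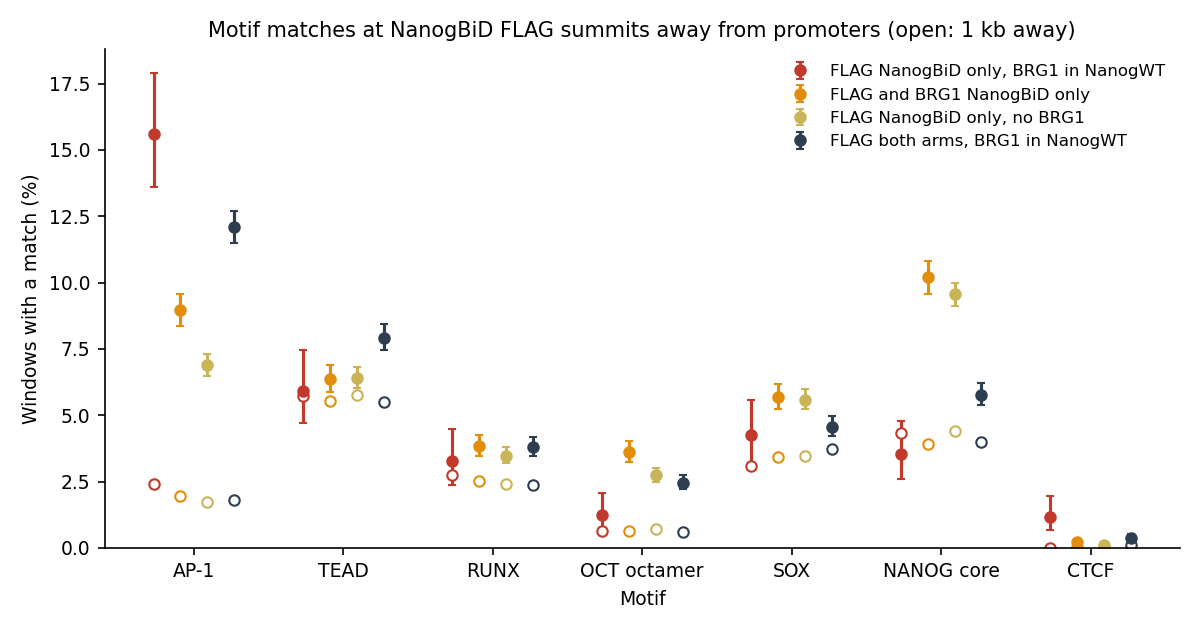
Percentage of windows with a match (y axis) for 7 of the motifs (x axis) at NanogBiD FLAG summits away from promoters, for regions with FLAG in NanogBiD only and BRG1 in NanogWT (red) and for 3 other classes with FLAG in NanogBiD. Filled points are the 101 bp windows at the summit, with Wilson 95% intervals as bars, and open points are windows 1 kb away. For the first class AP-1 reached 15.6% while the NANOG core reached 3.53%, and with FLAG and BRG1 in NanogBiD only they were 8.95% and 10.2%.

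AP-1 was found more often at the FLAG summit than at the BRG1 summit. In windows centred on the NanogWT BRG1 summit of the same 1849 regions it was found at 8.0% (6.85 to 9.33). The shares were 5.10% where FLAG was in both arms, 4.12% where it was in NanogWT only and 5.48% where there was none. Away from promoters the shares were 10.6%, 7.67%, 5.10% and 6.57% in the same order. Regions with FLAG in both arms also had AP-1 more often at the FLAG summit, at 7.94% of them. The 220 regions with an AP-1 match at the FLAG summit had BRG1 in NanogBiD at 73.6% (67.4 to 79.0), against 68.0% (65.7 to 70.2) of those without, and these intervals overlap. They were at promoters in 19.5% against 41.4%. H3K27ac in NanogBiD only was found at 24.1% (18.9 to 30.2) and 19.3% (17.4 to 21.3), and these intervals overlap too. AP-1 was found at 12.8% of the summits with BRG1 in both arms and 10% of those with BRG1 in NanogWT only.

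The genes at the regions were last set against 7 lists, of pluripotency, fibroblast and mesenchymal, AP-1, Hippo and TEAD, BAF, cell cycle and senescence, and epithelial genes. Of all 21924 protein-coding genes, 648 had a region at the promoter, 2.96%, and 2498 had one in the gene body or within 20 kb, 11.4%. The counts in the lists were small. Of 30 pluripotency genes 1 had a region at the promoter, of 30 fibroblast and mesenchymal genes 3, and of 16 Hippo and TEAD genes 2. None was found among 12 AP-1, 24 BAF, 14 cell cycle and 12 epithelial genes. In the gene body or within 20 kb the counts were 1 of 30, 4 of 30, 4 of 16, 2 of 12 (Fosb and Junb), 4 of 24 (Smarca4, Smarcd3, Smarce1 and Dpf3), 3 of 14 (Cdkn1a, Ccnd2 and Cdk6) and 1 of 12 (Cldn7) in the same order of lists. Nearness to a start site does not say which gene a region serves.

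The pluripotency gene was Tfcp2l1, a transcription factor of the naive state. Its promoter (chr1:118627536-118628386) had FLAG of 13 tags in NanogBiD, BRG1 of 8 tags in NanogWT with no peak in NanogBiD, H3K27ac of 14 and 13 tags and H3K4me1 of 13 and 16 tags. The BRG1 score of 50.7 there is near the lowest the lists hold.

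The fibroblast and mesenchymal genes were Twist2 and Snai1, which encode transcription factors of the mesenchymal program, and Tagln, which encodes the actin-binding protein transgelin. At Twist2 (chr1:91799947-91801346) FLAG was 9 tags, BRG1 13 tags in NanogWT and not called in NanogBiD, and H3K27ac 23 tags in NanogWT and 13 in NanogBiD. At Snai1 (chr2:167537363-167538589) FLAG was 19 tags with the summit 9 bp from the start, BRG1 10 and 13 tags, and H3K27ac 10 and 13 tags. At Tagln FLAG was 16 tags, BRG1 20 and 15 tags, and H3K27ac 18 and 22 tags. H3K27ac was therefore called in both arms at all 3, and lower in NanogBiD at Twist2 alone. A region in the body of Tgfb2, a TGF-beta ligand, had FLAG of 15 tags, BRG1 of 14 and 10 tags and H3K27ac of 11 tags in NanogWT only.

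The Hippo genes with a region at the promoter were Stk4, a kinase of the core cascade, and Nf2, whose product merlin acts upstream of it. At Stk4 (chr2:164073803-164074885) FLAG was 16 tags, BRG1 23 and 16 tags, and H3K27ac 29 and 27 tags. At Nf2 (chr11:4825969-4826842) FLAG was 22 tags, BRG1 10 and 13 tags, and H3K27ac 10 tags in NanogWT only. Regions in the body of the transcription factor gene Tead4 and beside the kinase gene Lats2 had FLAG of 15 and 18 tags and BRG1 of 11 and 8 tags at Tead4 and 16 and 13 tags at Lats2, where H3K27ac of 10 tags was called in NanogBiD only.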

How the data were processed

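CUT&Tag was analysed from the deposited peak lists of 8 merged libraries (FLAG, BRG1, H3K27ac and H3K4me1 in NanogWT and NanogBiD). Per the labels and methods, the authors trimmed reads with Trim Galore 0.6.4, mapped them to mm10 with Bowtie2 2.4.5, filtered them with SAMtools 1.16.1, merged replicates and called peaks with MACS 1.4.2. Each deposited peak carries the caller's score, and each deposited summit a height in tags, which is a pileup signal not scaled to depth. The labels and the methods give different kits and cell numbers for CUT&Tag. Depth per library was not given in these files, so no value was scaled to it.

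Peaks of the 4 FLAG and BRG1 lists were merged with an overlap of at least 1 bp or touching ends, and marks were assigned by overlap of 1 bp. The tallest summit of a FLAG or BRG1 list stood for a region. For H3K27ac and H3K4me1 the height is that of the highest-scoring overlapping peak, whose summit can lie outside the region. Start sites and exons came from GENCODE M21, with promoters as regions within 2 kb of a start site, and sequence from the mm10 reference. Shares have Wilson 95% intervals and medians exact binomial ones. Regions named were the 3 highest in the lower of the FLAG and NanogWT BRG1 scores for 4 sets (BRG1 in both arms or NanogWT only, at or away from promoters), the 3 highest in H3K27ac score for each arm-only set, the 3 largest rises and falls of BRG1, and each listed gene with a region at its promoter. Genes within 20 kb and other listed genes described were named after their values were seen, as were the bands of height and GC. Sequences were the first 2 of 4 of these sets, leaving out chromosome 18 and exons.

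The regions and gene lists were chosen with earlier results of these data known. Alternatives changed the peak threshold, the overlap, the rule on absence, the chromosomes, the promoter width, the motif window and the measure of change. Scripts were tested on simulated data (Python 3.11.15, numpy 2.4.6, pandas 2.3.3, scipy 1.17.1, pysam 0.24.0).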

Additional observations from a re-analysis of the deposited data

How the results depend on the processing

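Of 85 alternatives computed, 45 stayed close to the reported value and 40 moved, where close means within 1.5 times for a number of regions and within the reported value's own 95% interval for a share or a median. Merging across 500 bp, keeping chromosomes 1 to 19 and X, requiring direct overlap, and allowing no NanogWT FLAG peak within 1 kb moved none. In the order of number of regions, BRG1 in NanogBiD, H3K27ac in NanogBiD only and in NanogWT only, and promoters, the values were 792, 71.7%, 12%, 4.80% and 58.8% with scores of at least 100; 1220, 84.6%, 15%, 4.51% and 49.5% with the 20000 highest-scoring peaks; 1096, 62.3%, 10.8%, 3.19% and 64.6% with heights of at least 15 tags; 650, 88.6%, 24.9%, 2.77% and 36.3% with a score of at least 100 for NanogBiD FLAG alone; and 2878, 62.8%, 22.8%, 11.8% and 43.2% with windows of 100 bp around summits. H3K4me1 in NanogBiD only was 17.4% with the 20000 highest-scoring peaks, 9.69% with FLAG of at least 100 and 14.7% with summit windows, and in NanogWT only 6.80% with the 20000 peaks, 16.9% with at least 15 tags and 11.5% with FLAG of at least 100. The median log2 change of BRG1 was 0.00 with scores of at least 100 and with heights of at least 15 tags, at the lower bound of its interval, 0.26 with the 20000 peaks, 0.17 with FLAG of at least 100 and 0.17 with scores in place of heights. AP-1 was found at 14.6% with the 20000 peaks, 15.2% with FLAG of at least 100, 9.88% with summit windows, 6.0% within 25 bp and 8.0% at the NanogWT BRG1 summit. Promoters of 1 kb gave 34.1%. No paired analysis was possible because replicates had been merged before deposit. Unequal list sizes and unknown depth limit what absence of a peak says, and the cause of each shift was not tested.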

Other observations

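The 1855 regions were spread over all chromosomes read. Their share of the regions with BRG1 in NanogWT ranged from 4.96% on chromosome 16 to 7.67% on chromosome 15. BRG1 in NanogBiD was called at 61.9% of them on chromosome 5, the lowest, and 77.4% on chromosome 16, the highest. H3K27ac in NanogBiD only ranged from 11.8% on chromosome X (34 regions) to 28.2% on chromosome 6 (103 regions). These values are given without a test.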
